A study of Mus musculus with 2 samples.

Results

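The genes described here are 8 members of the TGF-beta system measured in single cells of the embryonic mouse heart. They comprise 3 ligands (Tgfb1, Tgfb2 and Tgfb3), 3 receptors (Tgfbr1, Tgfbr2 and Tgfbr3), the TGF-beta-induced matrix gene Tgfbi, and Inhba, which encodes the subunit of the related ligand activin A. They were chosen by name, and all 8 were found by Ensembl identifier among the 22401 features of each matrix. The study profiled whole hearts of embryonic day E11.5 in 2 libraries, 1 per genotype. The control embryos had the genotype Hand2fx/+R26RmTmG/wt, with 1 floxed Hand2 allele and no Cre. The H2CKO embryos had the genotype Nfatc1Cre/wtHand2fx/fxR26RmTmG/wt, with floxed alleles on both chromosomes and Cre driven by Nfatc1, a gene of the endocardium, the inner lining of the heart. The mTmG reporter, present once in each genotype, makes Tomato before and GFP after Cre has acted. All embryos waited on ice for about 3 hours before dissociation. Cre and the number of floxed Hand2 alleles changed together and cannot be told apart. The number and sex of the embryos per library are not in the labels.

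TGF-beta ligands are secreted in a latent form held by binding proteins, and once released they bring together the type II receptor (Tgfbr2) and the type I receptor (Tgfbr1), which then phosphorylates SMAD proteins. Tgfbr3, or betaglycan, is a co-receptor that presents ligand, above all TGF-beta 2, to the signalling receptors. In the developing heart this pathway is known for its part in the endocardial cushions, where endocardial cells become mesenchyme that later forms valves, and Hand2 encodes a basic helix-loop-helix transcription factor that acts in several heart lineages.

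By the GENCODE vM21 annotation, which uses the same genome build as the submitters' processing notes name (GRCm38.p6), the ligand genes lie at chr7:25687002-25705077 on the plus strand (Tgfb1, ENSMUSG00000002603), chr1:186622792-186705989 on the minus strand (Tgfb2, ENSMUSG00000039239) and chr12:86056745-86079041 on the minus strand (Tgfb3, ENSMUSG00000021253). The receptor genes lie at chr4:47353222-47414931 on the plus strand (Tgfbr1, ENSMUSG00000007613), chr9:116084293-116175360 on the minus strand (Tgfbr2, ENSMUSG00000032440) and chr5:107106570-107289629 on the minus strand (Tgfbr3, ENSMUSG00000029287). Tgfbi (ENSMUSG00000035493, chr13:56609523-56639562) and Inhba (ENSMUSG00000041324, chr13:16011851-16031621) are both on the plus strand of chromosome 13. All 8 are annotated as protein-coding.

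Promoter sequence was matched for 6 of the 8 genes in a RefSeq table of build GRCm38.p6; Tgfb3 and Tgfbr3 had no entry. The promoters of Tgfb1, the gene past 2-fold higher in H2CKO, and of Tgfb2 and Tgfbi, the genes past 2-fold lower in the most populations, follow. Each sequence is the DNA just before the start of the gene, 5′ to 3′ on the gene's strand, and capitals mark the E-box letters CANNTG, the kind of site that dimers of basic helix-loop-helix factors are known to bind. The windows are chr7:25686752-25687001 on the plus strand, chr1:186705990-186706239 on the minus strand and chr13:56609336-56609522 on the plus strand. They span 250, 250 and 187 bases; the Tgfbi window is shorter because the rest of its 250 bases before the RefSeq start lies inside the GENCODE gene and was left out.
Tgfb1: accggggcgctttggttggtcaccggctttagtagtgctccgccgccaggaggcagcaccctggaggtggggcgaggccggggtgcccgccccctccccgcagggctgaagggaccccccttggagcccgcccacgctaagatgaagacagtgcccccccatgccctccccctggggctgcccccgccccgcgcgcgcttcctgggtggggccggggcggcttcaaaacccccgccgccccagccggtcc
Tgfb2: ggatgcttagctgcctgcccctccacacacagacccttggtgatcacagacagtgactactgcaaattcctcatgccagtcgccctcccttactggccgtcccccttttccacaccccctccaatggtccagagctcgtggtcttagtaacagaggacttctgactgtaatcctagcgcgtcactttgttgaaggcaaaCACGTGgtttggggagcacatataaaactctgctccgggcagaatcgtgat
Tgfbi: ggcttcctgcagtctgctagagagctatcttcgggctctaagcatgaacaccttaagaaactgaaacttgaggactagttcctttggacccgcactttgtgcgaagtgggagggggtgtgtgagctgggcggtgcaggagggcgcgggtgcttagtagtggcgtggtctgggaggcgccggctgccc
CANNTG reads the same on both strands, so a search of 1 strand covers both. The Tgfb2 window held 1 match, CACGTG, and the Tgfb1 and Tgfbi windows held 0. Among 32851 RefSeq promoters of 250 bases, 66.2% held at least 1 match. A match describes letters only, and no match says only that the letters are not in this window.

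Across the kept cells, 9251 in the control and 11413 in H2CKO, the median depth was 16439 and 13377 UMIs (unique molecular identifiers, counted transcripts) per cell, and 57 barcodes occurred in both libraries. Clustering gave 20 clusters, and 10 populations with at least 50 cells in each library were compared. They are 2 endothelial populations named here for their leading genes, the Emcn-rich (127 control and 485 H2CKO cells) and the Klf2-rich (278 and 261); a Hapln1-rich (923 and 633) and a Meox1-rich (724 and 431) mesenchyme; epicardial-like cells (721 and 219); outflow-tract-like cells (406 and 504); ventricular-like cardiomyocytes (1679 and 3325); white-blood-cell-like cells (77 and 111); and 2 clusters left unnamed, rich in Bmp2 and Tbx3 (122 and 192) and in Tcf21 (146 and 103). Levels are given as CPM, the gene's UMIs per 1000000 UMIs of that population and library, with 95% exact Poisson intervals that cover counting error only. Erythroid-like cells (2745 and 4927), a cell type not expected to make these genes, are given beside shares of cells as a background. The erythroid-like cells of the control lay mostly in 3 clusters and those of H2CKO in 4 others, so the 2 background values come from different clusters. Nor is that background the same in every population, since Tgfb1 was higher in erythroid-like (9.10 and 11.03 CPM) than in ventricular-like cells (2.06 and 1.77). Hand2 was 167 CPM in the control and 12.8 in H2CKO in Emcn-rich endothelium, 245 and 7.65 in Klf2-rich endothelium, 174 and 13.2 in Hapln1-rich mesenchyme, 182 and 91.5 in Meox1-rich mesenchyme, and 73.3 and 71.7 in ventricular-like cells. GFP reached 1636 CPM in Klf2-rich endothelium and 1378 in Hapln1-rich mesenchyme of H2CKO, against 17.6 and 17.4 in the control, and 9.23 in ventricular-like cells, against 9.41. Tomato was lower in H2CKO in all 10 populations, and in ventricular-like cells it was 15.9 CPM in the control and 4.25 in H2CKO. Which part of Hand2 the floxed allele removes is not in the labels, so Hand2 counts may include transcripts of a deleted allele.

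Each gene had its own distribution over the populations. In both libraries Tgfb1 was highest in white-blood-cell-like cells and endothelium, Tgfb2 in the Bmp2- and Tbx3-rich cluster and then in Meox1-rich mesenchyme, Tgfbr2 in endothelium, Tgfbr3 in Emcn-rich endothelium, and Tgfbi and Inhba in Meox1-rich mesenchyme, while Tgfbr1 was spread over all 10 populations. Tgfbi and Inhba were also among the 10 genes with the highest fold in the Meox1-rich cluster, although the 8 genes were kept out of the clustering.

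**Figure D1:**
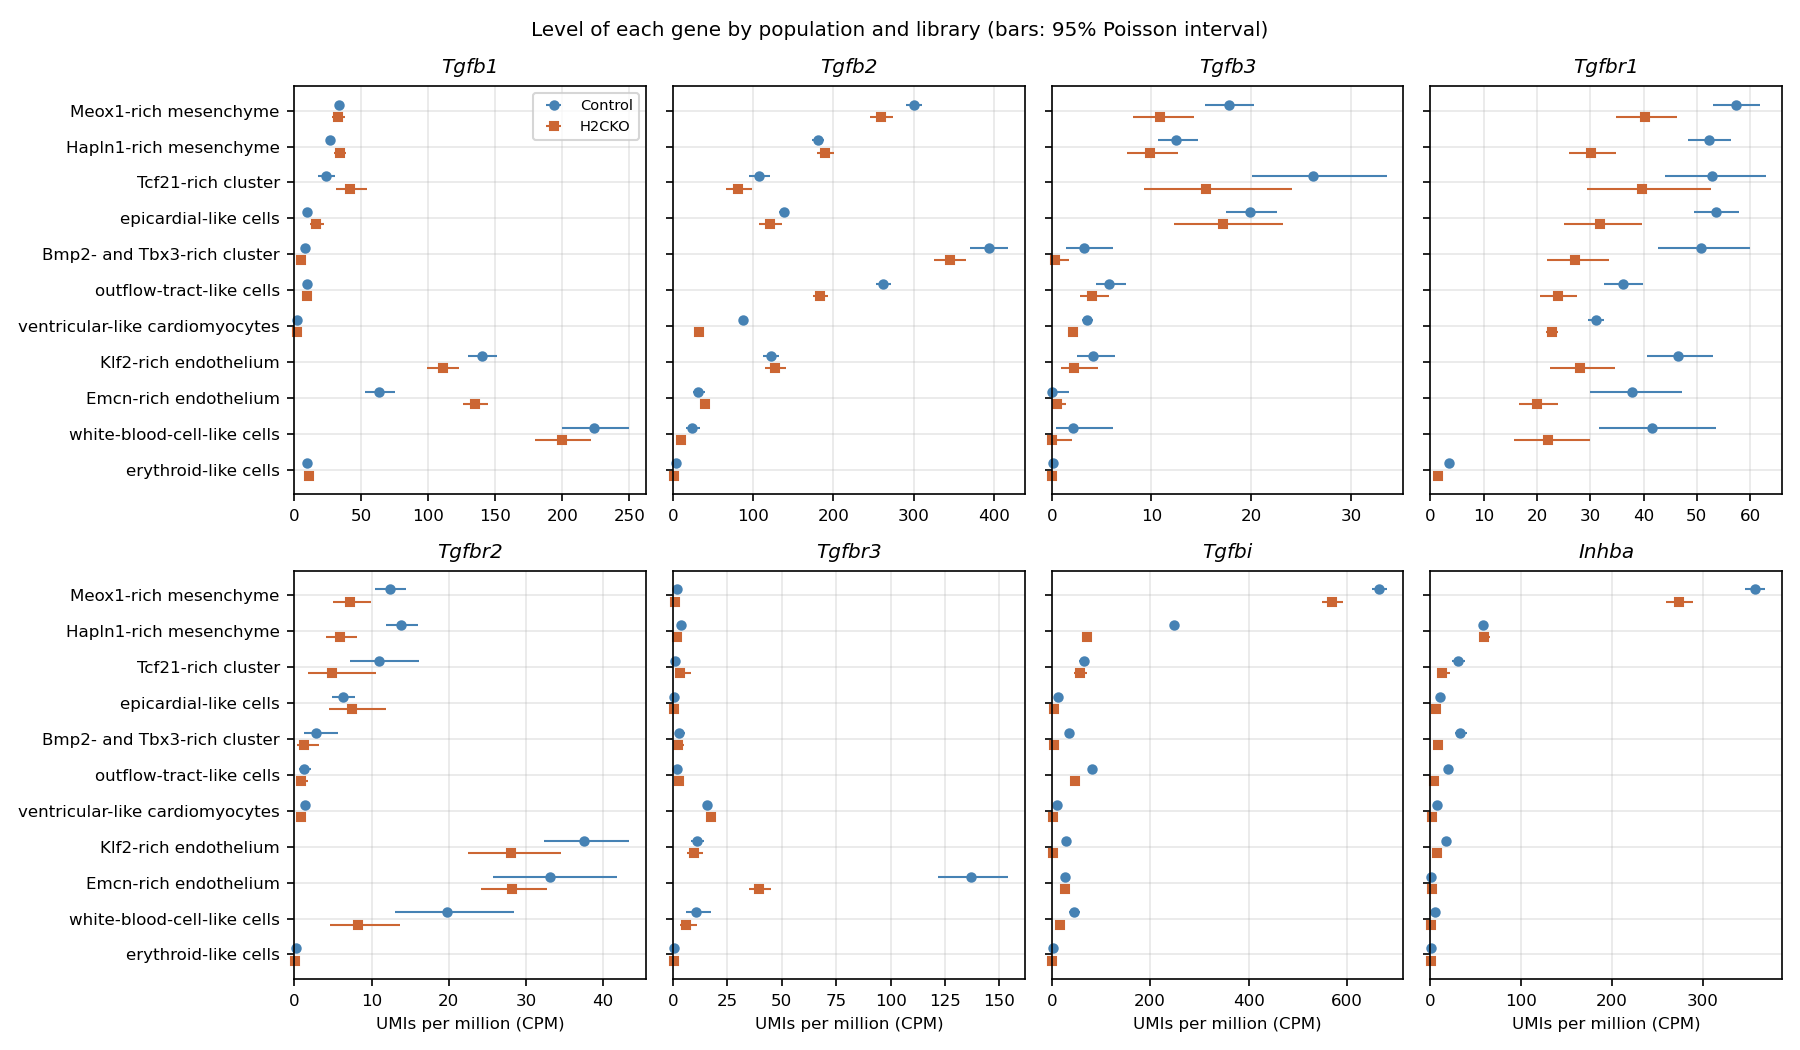
Level of the 8 genes in CPM (x axis, from 0, each panel on its own scale) in 10 compared populations and erythroid-like cells (y axis), with control as circles and H2CKO as squares and 95% Poisson intervals as bars. Tgfbi in Hapln1-rich mesenchyme (248 and 71.2 CPM) and Tgfbr3 in Emcn-rich endothelium (137 and 39.6 CPM) show wide gaps between the libraries.

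With 1 library per genotype no test was possible, so a difference is given as the log2 ratio of H2CKO over control after adding 5 CPM to each, and called past 2-fold when the ratio was at least 1 in size and the higher library had at least 20 CPM and 20 UMIs. Of the 80 values (8 genes in 10 populations), 42 reached that level. Among them 9 were past 2-fold, 1 higher and 8 lower in H2CKO. Over all genes and the same populations, 5.05% of 62046 values were past 2-fold, 0.588% higher and 4.46% lower (365 and 2768 values), which became 733 and 1059 with the ratios centred on the median gene and 680 and 821 with the trend on gene span taken off. The median log2 ratio of the 42 values was −0.38, and 34 of them were below 0. With the trend on gene span taken off, the median was 0.01 and 20 of the 42 were below 0. The median over all genes compared also lay below 0, between −0.25 in Emcn-rich endothelium and −0.17 in the Bmp2- and Tbx3-rich cluster.

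By population, the members past 2-fold numbered 2 of 6 in Emcn-rich endothelium (9.72% of all genes compared there), 1 of 5 in Klf2-rich endothelium (3.73%), 1 of 5 in Hapln1-rich mesenchyme (5.84%), 2 of 4 in the Bmp2- and Tbx3-rich cluster (2.6%), 1 of 2 in ventricular-like cells (1.36%) and 2 of 4 in white-blood-cell-like cells (8.94%). Meox1-rich mesenchyme had 0 of 5 (3.27% of all genes), epicardial-like cells 0 of 2 (5.52%), the Tcf21-rich cluster 0 of 6 (7.08%) and outflow-tract-like cells 0 of 3 (2.11%). Of the 9, Tgfbi accounted for 4, Tgfb2 for 2, and Tgfb1, Tgfbr3 and Inhba for 1 each.

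**Figure D2:**
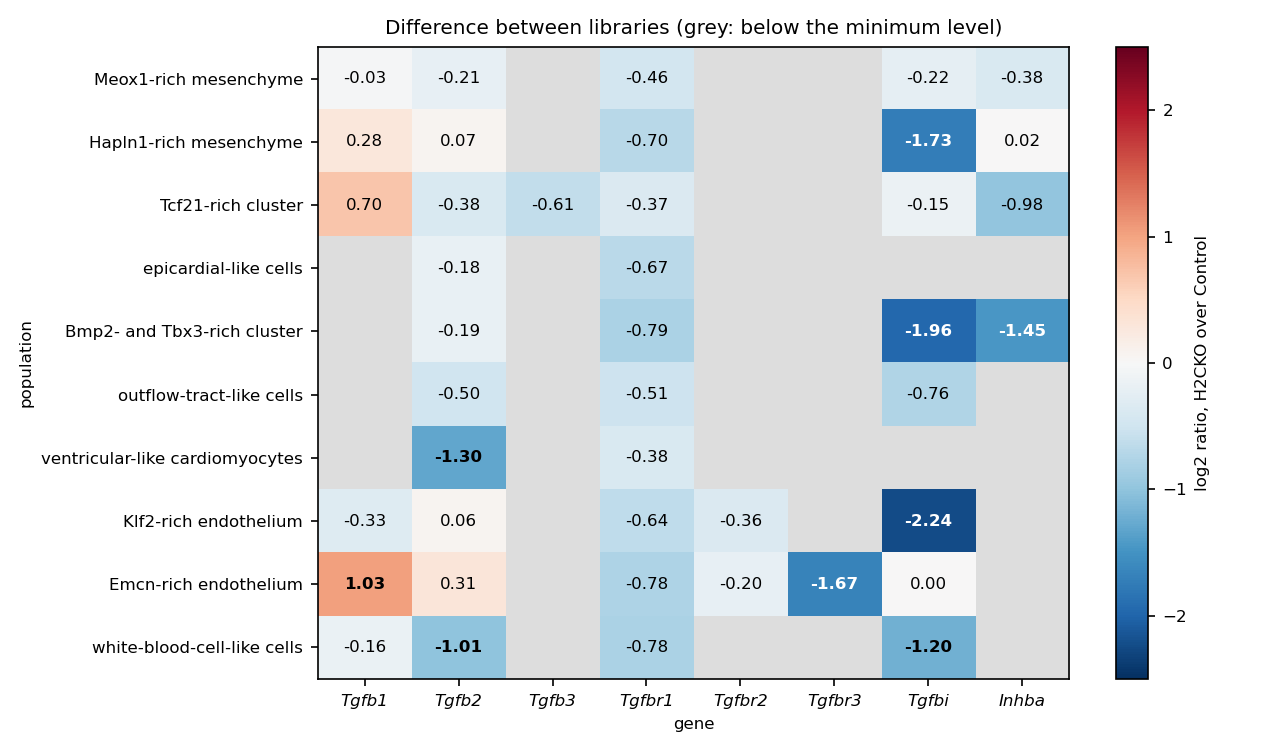
Log2 ratio of H2CKO over control (colour and printed value) for each gene (columns) in each population (rows), with bold for values past 2-fold and grey for genes below 20 CPM or 20 UMIs in the higher library. Tgfbr1 is below 0 in every row, from −0.79 to −0.37, with none past 2-fold.

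Tgfb1, the ligand best known for its role in immune and vascular cells, was the only one of these genes past 2-fold higher in H2CKO. In Emcn-rich endothelium it measured 63.3 CPM (95% interval 52.9 to 75.0; 132 UMIs) in the control and 135 CPM (126 to 144; 841 UMIs) in H2CKO. The intervals did not overlap, and the ratio of counts was 2.13 (1.77 to 2.58), a log2 ratio of 1.03. After thinning each cell to 5000 UMIs, 29.4% of control cells (21.4 to 38.5, exact binomial) and 47.3% of H2CKO cells (42.6 to 52.0) had a Tgfb1 UMI, against 3.96% and 5.27% of erythroid-like cells.

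The cells of the Emcn-rich population were not alike in the 2 libraries by their other markers. The summed level of 6 endocardial markers was 1271 CPM in the control and 335 in H2CKO, and that of 6 vascular endothelial markers was 139 and 281. Npr3, an endocardial marker, was 465 and 80.6 CPM, whereas Cldn5 and Sox17, markers of vascular endothelium, were 26.4 and 130 CPM and 18.2 and 93.4 CPM. The vascular list did not move as a whole: Fabp4 was 17.3 and 45.7 CPM and Aplnr 6.71 and 8.01, but Car4 was 68.1 and 2.56 and Apln 2.88 and 1.92. Among the endocardial markers Cytl1 was at 0 in the control. The part of this shift in the difference of Tgfb1 was not tested, and the same holds for Tgfbr3 below. Without the split into Emcn-rich and Klf2-rich clusters, at a clustering resolution of 0.5, the log2 ratio of Tgfb1 in all endothelium was 0.11, and among cells of the authors' deposited embedding it was 0.95 in Emcn-rich cells.

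In Klf2-rich endothelium Tgfb1 was 140.1 CPM (129.8 to 151) in the control and 111 (99.3 to 123) in H2CKO, a log2 ratio of −0.33 beside a median of −0.22 over all genes there. The order of the endothelial populations was thus reversed, with Klf2-rich above Emcn-rich cells in the control and below them in H2CKO, and the intervals of the 2 populations did not overlap in either library. White-blood-cell-like cells had the highest level in both libraries, 224 CPM (199.9 to 249.9) and 199 (179 to 221). Hapln1-rich mesenchyme had 26.9 and 33.9 CPM, Meox1-rich mesenchyme 33.4 and 32.6, and the Tcf21-rich cluster 23.6 and 41.4, a log2 ratio of 0.70. Epicardial-like cells, at 9.20 and 16.3 CPM, were under the minimum level, as were ventricular-like cells and outflow-tract-like cells, the latter at 9.63 and 9.60 CPM with intervals that overlapped those of erythroid-like cells.

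Tgfb2, the ligand most closely tied to cushion formation and outflow tract development, was lower in ventricular-like cardiomyocytes of H2CKO. It measured 87.2 CPM (84.7 to 89.8; 4477 UMIs) in the control and 32.6 CPM (31.2 to 33.9; 2265 UMIs) in H2CKO. This was 2.68-fold lower (2.55 to 2.82), a log2 ratio of −1.30. After thinning, 28.9% of control cells (26.7 to 31.1) and 12.5% of H2CKO cells (11.3 to 13.6) had a Tgfb2 UMI, against 1.69% and 0.569% of erythroid-like cells. Hand2 and GFP, given above, hardly differed between the libraries in these cells. Tomato, by contrast, was 15.9 CPM in the control and 4.25 in H2CKO.

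The lower Tgfb2 level was seen in both parts of the ventricular-like population. At a finer clustering chosen after seeing the data, the part led by Tnni2 and Ryr2 (879 control and 1652 H2CKO cells) had 101 and 36.0 CPM, a log2 ratio of −1.37. The part led by Nppa and Cited1, genes of the trabecular layer (794 and 1659 cells), had 61.4 and 26.1 CPM, a log2 ratio of −1.10. The first of these was the higher in both libraries. Mesenchymal markers also differed in ventricular-like cells, with a sum over 12 genes of 622 CPM in the control and 214 in H2CKO and no marker at 0, and trabecular markers summed to 1775 and 3363 CPM. Their part in the result was not tested.

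In 8 of the other populations Tgfb2 was short of 2-fold, with log2 ratios from −0.50 in outflow-tract-like cells to 0.31 in Emcn-rich endothelium. With the trend on gene span taken off, all 8 were above 0, from 0.01 in outflow-tract-like cells to 0.89 in Emcn-rich endothelium, so that 5 of them turned from below to above 0. At a clustering resolution of 0.5, where the endothelial populations merged, the endothelial ratio was −0.42. The Bmp2- and Tbx3-rich cluster had the highest level in both libraries, 394 CPM (371 to 418) in the control and 345 (325 to 365) in H2CKO. Meox1-rich mesenchyme followed with 300.5 and 259 CPM, then in the control the outflow-tract-like cells with 262 CPM and Hapln1-rich mesenchyme with 180.4. In H2CKO those last populations had 183 CPM (174 to 193) and 189.8 CPM (179 to 201), with overlapping intervals. Epicardial-like cells had 138 and 121 CPM, Klf2-rich endothelium 122 and 127, the Tcf21-rich cluster 107 and 81.2, and Emcn-rich endothelium 31.6 and 40.4. White-blood-cell-like cells were past 2-fold, going from 23.9 CPM (16.6 to 33.4; 34 UMIs) to 9.36 CPM (5.45 to 14.99; 17 UMIs), a log2 ratio of −1.01 that fell short of 2-fold with the ratios centred on the median gene (−0.80) and with the trend on gene span taken off (−0.41). Mesenchymal markers in the white-blood-cell-like cells summed to 332 and 153 CPM, and their part was not tested.

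Tgfb3 was low throughout. Its highest levels were in the Tcf21-rich cluster, 26.2 CPM (20.1 to 33.6) in the control and 15.4 (9.28 to 24.1) in H2CKO, and in epicardial-like cells, 19.9 (17.5 to 22.6) and 17.1 (12.3 to 23.2), with overlapping intervals between those 2 populations in both libraries. Meox1-rich and Hapln1-rich mesenchyme came next, with 17.7 and 12.5 CPM in the control and 10.9 and 9.86 in H2CKO. The Tcf21-rich cluster was the only population above the minimum level, and its log2 ratio was −0.61. Emcn-rich endothelium held 0 Tgfb3 UMIs in the control, with an upper interval limit of 1.77 CPM (3 UMIs over that population would be 1.44 CPM), and 3 UMIs in H2CKO.

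Of the signalling receptors, Tgfbr1 was present in all 10 populations and lower in H2CKO in each of them, without reaching 2-fold. Control levels lay between 31.1 CPM in ventricular-like cells and 57.3 in Meox1-rich mesenchyme, and H2CKO levels between 20.02 in Emcn-rich endothelium and 40.2 in Meox1-rich mesenchyme. In the control, every pair of neighbours in that order had overlapping intervals, and so it was in H2CKO. The smallest difference was in the Tcf21-rich cluster, 52.8 CPM (43.9 to 62.9) and 39.8 (29.4 to 52.6), and the largest in the Bmp2- and Tbx3-rich cluster, 50.8 (42.8 to 59.9) and 27.2 (21.9 to 33.5), a log2 ratio of −0.79. Erythroid-like cells had 3.45 and 1.39 CPM.

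In all 10 populations the log2 ratio of genes fell with gene span, the distance from the start to the end of the gene, with a Spearman rho across genes between −0.56 and −0.45. Genes are not independent replicates, so no p is given. Tgfbr1 spans 61.7 kb, and genes of like span had a median log2 ratio of −0.57 in Hapln1-rich mesenchyme, where Tgfbr1 had −0.70. In ventricular-like cells the median was −0.42 and Tgfbr1 had −0.38. With the median of such genes taken off, Tgfbr1 ratios ranged from −0.40 in the Bmp2- and Tbx3-rich cluster to 0.19 in the Tcf21-rich cluster, and were above 0 in the latter cluster, in Meox1-rich mesenchyme, in outflow-tract-like and in ventricular-like cells.

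**Figure D3:**
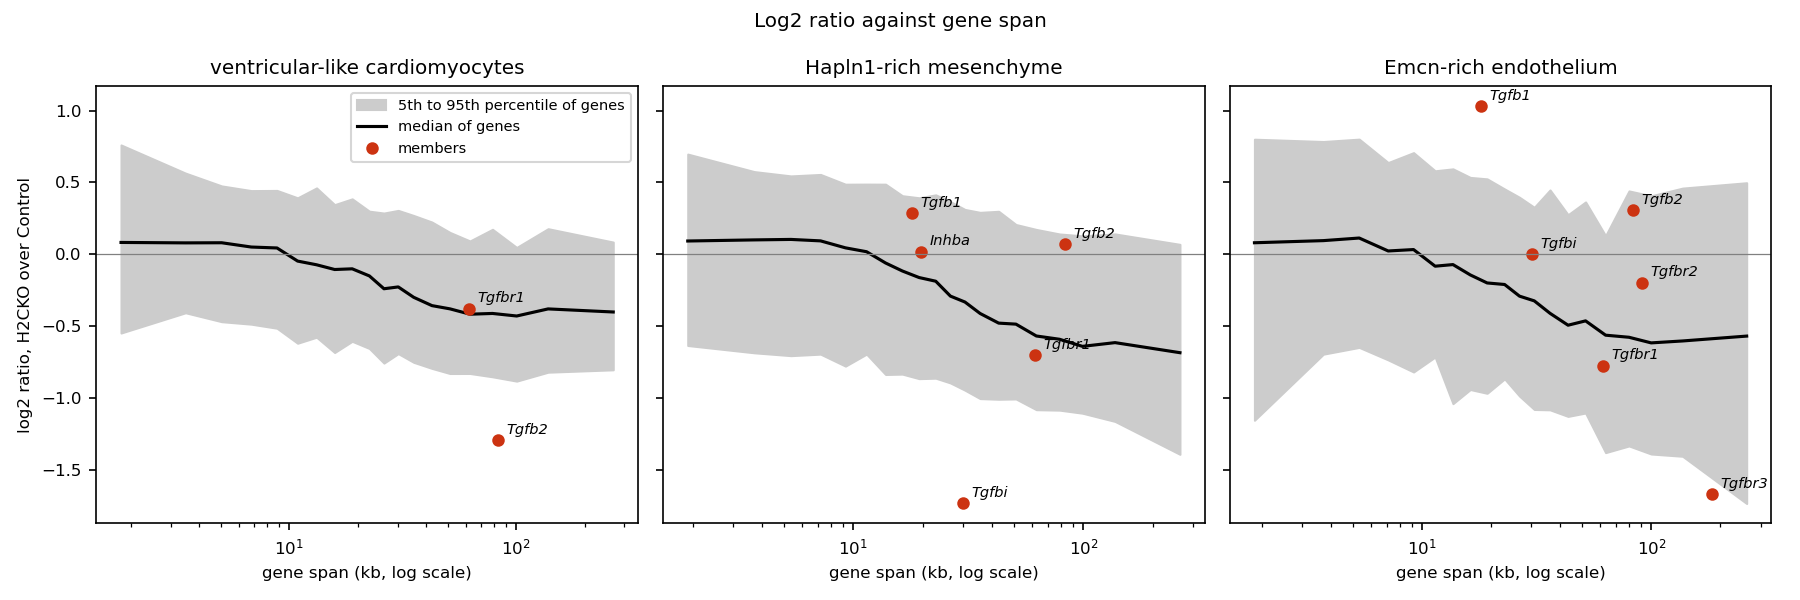
Log2 ratio of H2CKO over control (y axis) against gene span in kb (x axis, log scale) in 3 populations, with the median (line) and the 5th to 95th percentile (grey) of 20 bins of genes and the members as points. Tgfb2 in ventricular-like cells (−1.30, bin median −0.41) and Tgfbi in Hapln1-rich mesenchyme (−1.73, bin median −0.33) lie below the grey band, and Tgfb1 in Emcn-rich endothelium (1.03, bin median −0.20) above it, while Tgfbr3 in Emcn-rich endothelium (−1.67) is at its lower edge, inside the range of its own bin.

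The members past 2-fold stood at different places among genes of like span. Tgfb2 spans 83.2 kb, and in ventricular-like cells only 1 of the 278 genes of its bin was lower, with −0.88 left after taking off the bin's median, short of 2-fold. Tgfbi spans 30.0 kb and was the lowest of 323 genes of its bin in Hapln1-rich mesenchyme, with −1.40 left. Tgfbr3 spans 183 kb, the longest of the 8, and in Emcn-rich endothelium 18 of 316 genes of its bin were lower, with −1.10 left, so that it lay within the range from the 5th to the 95th percentile of that bin. Tgfb2 in white-blood-cell-like cells had 47 of 295 genes of its bin lower.

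Tgfbr2, the type II receptor, was mainly endothelial. It measured 37.5 CPM (32.3 to 43.4) in control and 28.1 (22.5 to 34.6) in H2CKO Klf2-rich cells, and 33.1 (25.7 to 41.9) and 28.2 (24.2 to 32.7) in Emcn-rich cells. The 2 endothelial populations overlapped in both libraries, and their log2 ratios were −0.36 and −0.20. With the trend on gene span taken off, these ratios became 0.13 and 0.42. Other populations stayed under the minimum of 20 CPM, from 19.7 and 8.26 CPM in white-blood-cell-like cells to 1.25 and 0.862 in outflow-tract-like cells. Hapln1-rich mesenchyme was among them, with 13.9 CPM (11.9 to 16.1) and 5.88 (4.14 to 8.11), 2 intervals that did not overlap. The Tgfbr2 log2 ratio there was −0.79 and ranged from −1.11 to −0.15 over 15 alternatives.

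Tgfbr3, the co-receptor, set the 2 endothelial populations apart. It was 137 CPM (122 to 154; 286 UMIs) in control Emcn-rich endothelium and 39.6 CPM (34.8 to 44.8; 247 UMIs) in H2CKO, which was 3.46-fold lower (2.91 to 4.12), a log2 ratio of −1.67. In Klf2-rich endothelium it was 10.9 and 9.56 CPM. After thinning, 38.7% of control (29.9 to 48.0) and 16.7% of H2CKO (13.4 to 20.5) Emcn-rich cells had a UMI, against 0.113% and 0.147% of erythroid-like cells. The endocardial marker sum of that population, 1271 and 335 CPM as given above, moved the same way. At a clustering resolution of 0.5, where the endothelial populations merged, the log2 ratio of Tgfbr3 was −0.64. Ventricular-like cells were next in order with 15.7 CPM (14.6 to 16.8) and 17.4 (16.5 to 18.4), below the minimum level for a ratio.

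Tgfbi, which encodes an extracellular matrix protein induced by TGF-beta, was the member most often past 2-fold. In Hapln1-rich mesenchyme it was 248 CPM (239.6 to 257; 3117 UMIs) in the control and 71.2 CPM (64.8 to 78.1; 448 UMIs) in H2CKO. This was 3.49-fold lower (3.16 to 3.86), a log2 ratio of −1.73. After thinning, 62.3% of control cells (59.0 to 65.5) and 26.1% of H2CKO cells (22.6 to 29.9) had a Tgfbi UMI, against 1.39% and 0.695% of erythroid-like cells. In Meox1-rich mesenchyme, by contrast, the level was 665 CPM (651 to 680.4) and 569.9 (549 to 591), a log2 ratio of −0.22, and 93.8% and 89.1% of thinned cells had a UMI. The 2 mesenchymal populations merged at clustering resolutions of 0.5 and 1, where the log2 ratio of Tgfbi was −0.63. The sum of 12 mesenchymal markers was 8260 and 3528 CPM in Hapln1-rich and 7871 and 4656 CPM in Meox1-rich mesenchyme, with none at 0, and that of 12 erythroid markers was 13934 and 44835 and 12731 and 64060 CPM. The part of these markers in the differences was not tested.

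The other populations where Tgfbi was past 2-fold held far less of it. Klf2-rich endothelium had 29.1 CPM (24.5 to 34.3; 142 UMIs) in the control and 2.23 CPM (0.897 to 4.60; 7 UMIs) in H2CKO, 13.1-fold lower (6.17 to 33.0). The Bmp2- and Tbx3-rich cluster had 34.7 CPM (28.1 to 42.3; 97 UMIs) and 5.20 CPM (3.03 to 8.33; 17 UMIs), 6.67-fold lower (3.96 to 11.9). White-blood-cell-like cells had 45.8 CPM (35.3 to 58.3) and 17.1 (11.6 to 24.2). In each the intervals of the libraries did not overlap, and the H2CKO interval of Klf2-rich endothelium overlapped that of erythroid-like cells, 1.21 CPM (0.966 to 1.51). The mesenchymal marker sum moved the same way in all 3, from 4269 to 2046, from 1289 to 453 and from 332 to 153 CPM, and its part was not tested. In white-blood-cell-like cells the log2 ratio of −1.20 became −0.87 with the trend on gene span taken off, short of 2-fold. Emcn-rich endothelium had 26.8 CPM (20.3 to 34.9) and 26.9 (23.0 to 31.3), a log2 ratio of 0.00.

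Outflow-tract-like cells had 82.6 CPM (77.1 to 88.3) of Tgfbi in the control and 46.7 (42.1 to 51.6) in H2CKO, a log2 ratio of −0.76, and the Tcf21-rich cluster 64.6 (54.8 to 75.7) and 57.6 (45.0 to 72.7), a ratio of −0.15 that ranged from −1.30 to 0.24 over 12 alternatives. In ventricular-like cells Tgfbi was under the minimum level but its counts were many, 587 UMIs or 11.4 CPM (10.5 to 12.4) in the control and 130 UMIs or 1.87 CPM (1.56 to 2.22) in H2CKO. Erythroid-like cells had 2.32 and 1.21 CPM, and the mesenchymal marker sum of ventricular-like cells, 622 and 214 CPM, moved the same way as Tgfbi, its part not tested. That difference lay mainly in the part led by Tnni2 and Ryr2, with 15.99 and 2.01 CPM, against 3.50 and 1.59 in the part led by Nppa and Cited1.

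Inhba, the activin A subunit, was concentrated in Meox1-rich mesenchyme, at 357 CPM (347 to 368) in the control and 274 (259 to 289) in H2CKO, a log2 ratio of −0.38. Hapln1-rich mesenchyme was next with 58.3 CPM (54.1 to 62.7) and 59.1 (53.3 to 65.5), a ratio of 0.02, so that Inhba did not follow Tgfbi there. The Bmp2- and Tbx3-rich cluster had 32.9 CPM (26.5 to 40.4; 92 UMIs) and 8.87 CPM (5.94 to 12.7; 29 UMIs), 3.71-fold lower (2.42 to 5.84). That difference was short of 2-fold with no doublets removed (log2 ratio −0.61) and with the 8 genes kept among the clustering genes (−0.72). The same held with cells thinned to 5000 UMIs (−0.86) and at clustering resolutions of 0.5 (−0.67) and 1 (−0.62). The mesenchymal marker sum of that cluster, 1289 and 453 CPM, moved the same way, and its part was not tested. The Tcf21-rich cluster had 30.4 and 12.98 CPM, a log2 ratio of −0.98 that ranged from −2.22 to −0.34 over 12 alternatives and was past 2-fold in 2 of them. Outflow-tract-like cells, at 19.3 CPM (16.7 to 22.1) and 4.19 (2.90 to 5.85), were just under the minimum level. Emcn-rich endothelium held 2 and 13 Inhba UMIs.

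Inhba and Tgfbi were also counted in the same cells. In Meox1-rich mesenchyme Tgfbi was found in 663 and Inhba in 489 of 707 thinned control cells, so the share with both could differ little from the product of the separate shares. Among these cells, 65.1% of control cells (61.4 to 68.6) had a UMI of both, and the product of the separate shares was 64.9%; in H2CKO the values were 52.2% (47.2 to 57.1) and 51.0%. Hapln1-rich mesenchyme had 13.3% (11.1 to 15.7) against a product of 12.4% in the control and 6.91% (5.01 to 9.26) against 6.08% in H2CKO. In control ventricular-like cells 12 of 1671 had both, 0.718% (0.372 to 1.25), against a product of 0.0977%. In H2CKO 0 of 3252 cells had both, where the product of 0.00934% is less than 1 cell. In the Bmp2- and Tbx3-rich cluster 5 of 116 control cells had both, 4.31% (1.41 to 9.77) against a product of 0.899%. There 0 of 187 H2CKO cells had both, with a product of 0.0686%, again less than 1 cell, so neither count of 0 shows a loss.

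Within H2CKO, cells could be divided by whether they held a GFP UMI, the sign that Cre had acted in the cell or its ancestors. A cell without a GFP UMI is not shown to lack Cre activity, and the Cre-free control also had a GFP UMI in 19.5% of Hapln1-rich, 16.8% of Meox1-rich and 21.0% of Emcn-rich cells. In Hapln1-rich mesenchyme 329 H2CKO cells had a GFP UMI and 264 did not, at median depths of 9353 and 9530 UMIs. Hand2 was 5.47 CPM in the former and 25.8 in the latter after thinning to 5000 UMIs. Tgfbi was 62.0 CPM (50.6 to 75.3) with GFP and 84.1 (69.2 to 101) without, a ratio of 0.737 (0.558 to 0.974), and control cells thinned the same way had 260.2 CPM. Both kinds of H2CKO cell were thus far below the control. Tgfb1 was 41.3 CPM (32.1 to 52.4) with GFP and 22.7 (15.3 to 32.4) without, a ratio of 1.82 (1.17 to 2.90), while the control had 27.2.

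Meox1-rich mesenchyme had few cells with GFP, 57 of 412, a share of 13.8% that was no higher than in the control. Tgfbi was 628 CPM with GFP and 635 without, a ratio of 0.988 (0.839 to 1.16), and Inhba was 249 and 289, a ratio of 0.862 (0.663 to 1.11). In Emcn-rich endothelium 279 of 455 cells had GFP. There Tgfb1 was 151 CPM (131 to 172) with and 147 (122 to 174) without GFP, both above the control value of 67.2, and Tgfbr3 was 34.4 (25.4 to 45.6) and 40.9 (28.7 to 56.6), both below the control value of 111. The ratios were 1.03 (0.821 to 1.29) and 0.841 (0.535 to 1.33). Tgfb2 was 45.9 and 27.3 CPM, a ratio of 1.68 (1.04 to 2.81). All these intervals cover counting error among cells of 1 library.

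**Figure D4:**
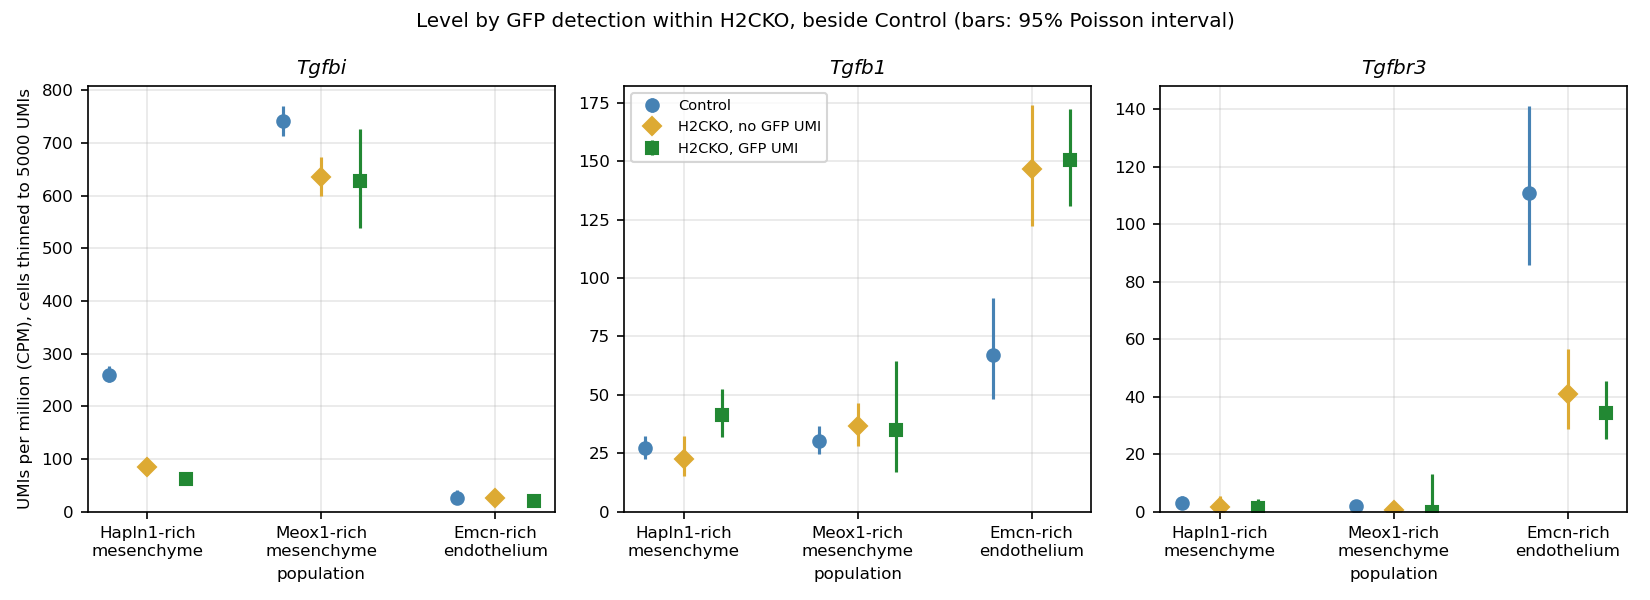
Level of Tgfbi, Tgfb1 and Tgfbr3 in CPM (y axis, from 0, cells thinned to 5000 UMIs, 95% Poisson intervals) in 3 populations (x axis) for control cells (circles), H2CKO cells without a GFP UMI (diamonds) and H2CKO cells with one (squares). In Hapln1-rich mesenchyme Tgfbi is 260.2 CPM in the control and 84.1 and 62.0 in the 2 kinds of H2CKO cell.

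The genes whose levels over 24 points (12 populations in both libraries) were most like each member were taken from 5292 genes with at least 50 CPM in at least 1 point. The points were the 10 compared populations, the erythroid-like cells and a shallow cardiomyocyte-like cluster with a median of 1486 and 1460 UMIs per cell. In the H2CKO part of that shallow cluster 3 UMIs would be 5.20 CPM, so low levels there are near the floor. All points of a library share its depth and handling, so the coefficients are descriptions. Tgfb2 was most like Bambi (Pearson r = 0.95), which encodes a decoy receptor of the TGF-beta family, then P4ha2 (0.94) and Unc5b (0.93). Tgfb1 was most like Klk8 (0.94), Hhex (0.92) and Fxyd5 (0.92), and Tgfb3 like the matrix genes Mfap4 (0.95), Col1a1 (0.94) and Col6a1 (0.94). Inhba and Tgfbi shared Meox1 (0.94 and 0.87) and Baalc (0.93 and 0.89), with Prrx1 (0.93) for Inhba and Cthrc1 (0.88) for Tgfbi. Tgfbr1 was most like Tmed7, Magt1 and Kdm2a (0.97 to 0.98), Tgfbr2 like Arhgef1, Arap3 and Ptpn12 (0.94 to 0.96), and Tgfbr3 like Rapgef5, Irx5 and Tec (0.85 to 0.86).

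Of 55 other genes of the pathway, all were in the files. Over the 10 populations 298 values reached the minimum level, of which 1 was past 2-fold higher and 48 lower in H2CKO. These became 2 and 26 with the ratios centred on the median gene and 1 and 27 with the trend on gene span taken off. Calls over all genes were mostly lower too, with 365 values higher and 2768 lower (0.588% and 4.46%). They became 733 and 1059 when centred and 680 and 821 with the trend taken off. In Emcn-rich endothelium 0 of the 28 that reached the minimum level were higher and 7 lower (1.44% and 8.28% of all genes), in Klf2-rich endothelium 0 and 6 of 34 (0.515% and 3.21%), in Hapln1-rich mesenchyme 1 and 3 of 35 (0.479% and 5.36%), and in Meox1-rich mesenchyme 0 and 2 of 37 (0.415% and 2.86%). The Bmp2- and Tbx3-rich cluster had 0 and 7 of 29 (0.275% and 2.33%), ventricular-like cells 0 and 4 of 19 (0.305% and 1.06%), outflow-tract-like cells 0 and 5 of 30 (0.135% and 1.97%) and white-blood-cell-like cells 0 and 10 of 22 (1.29% and 7.66%). The Tcf21-rich cluster had 0 and 3 of 34 (0.464% and 6.62%) and epicardial-like cells 0 and 1 of 30 (0.557% and 4.96%). The list's median log2 ratio lay between −0.94 in white-blood-cell-like cells and −0.35 in epicardial-like cells, below that of all genes in every population. Those medians were taken without removing the trend on gene span. Of the 298 values 247 were below 0, and 189 with that trend taken off.

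Genes of latency and activation were among those lower in endothelium and mesenchyme. Ltbp1, a binding protein of latent TGF-beta, was 92.5 CPM in the control and 26.0 in H2CKO in Emcn-rich endothelium, and 162 and 63.8 in Klf2-rich endothelium. Furin, a protease that cleaves the ligand precursors, was 51.3 and 14.6 CPM in Emcn-rich endothelium, 95.01 and 37.2 in Hapln1-rich mesenchyme and 72.3 and 32.8 in Meox1-rich mesenchyme. The endocardial marker sum of Emcn-rich endothelium, given above, was also lower in H2CKO, and its part in the differences there was not tested. Thbs1, whose product thrombospondin 1 can activate latent TGF-beta, was 324 and 139.96 CPM in Meox1-rich mesenchyme, 258 and 121 in Klf2-rich endothelium and 208 and 51.2 in white-blood-cell-like cells.

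On the activin side, Fst, which encodes the activin-binding protein follistatin, went opposite ways. It was 28.3 CPM (59 UMIs) in the control and 1.28 (8 UMIs) in H2CKO in Emcn-rich endothelium, and 7.72 (97 UMIs) and 20.7 (130 UMIs) in Hapln1-rich mesenchyme, where it was the only pathway gene past 2-fold higher. That mesenchymal ratio, 1.01 on the log2 scale, lay just past the threshold. In Emcn-rich endothelium the part of the lower endocardial marker sum in the Fst difference was not tested.

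Among genes of the SMAD group, Skil, a repressor of SMAD activity that TGF-beta is known to induce, was 41.4 and 16.5 CPM in ventricular-like cells, 101 and 39.6 in outflow-tract-like cells and 85.1 and 35.5 in the Bmp2- and Tbx3-rich cluster. Response genes lower in H2CKO included the matrix gene Fn1 in ventricular-like cells (104 and 31.1 CPM), Tagln, a smooth muscle gene, in Klf2-rich endothelium (177 and 40.5), and Has2, the hyaluronan synthase of the cushions, in Klf2-rich endothelium (155 and 70.8) and Hapln1-rich mesenchyme (155 and 71.9). Col1a1 and Postn, also on the list of mesenchymal markers, were lower in several populations, with Col1a1 at 265 and 63.6 CPM in Hapln1-rich mesenchyme. The mesenchymal marker sums given above were lower in H2CKO in these populations too, at 622 and 214 CPM in ventricular-like cells, 4269 and 2046 in Klf2-rich endothelium and 8260 and 3528 in Hapln1-rich mesenchyme, and their part was not tested.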

How the data were processed

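The authors deposited 1 matrix of raw UMI counts for each library, whose features are Ensembl identifiers and 2 reporters per the file headers. The submitters' processing notes list Cell Ranger 5.0.1, Seurat 4 and GRCm38.p6 without roles; barcode calling and intron counting are not given in the sources used here. The authors also deposited embedding coordinates, a score without a unit, used only to mark cells for an alternative. The matrices held 195825720 (control) and 201477256 (H2CKO) UMIs over 14114 and 13885 barcodes.

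Barcodes needed 500 genes and no more than 10% mitochondrial UMIs. Scrublet (scanpy 1.11.5) marked 1048 and 0 doublets by its automatic threshold, so the highest 6% of scores were removed in each library. Counts were scaled to 10000 per cell and logged, and 2000 variable genes (without haemoglobin, mitochondrial, Y-linked and reporter genes, Tsix, Xist, Hand2 and the 8 members), standardized within each library, gave 30 principal components. Each cell was joined to 15 neighbours per library, and Leiden clusters (leidenalg 0.10.2, resolution 2) were named from marker lists. Names needed a median log2 fold of at least 0.25 and 3 markers in at least 10% of cells. The 2 clusters left unnamed also reached these levels. The Bmp2- and Tbx3-rich cluster did so for cardiomyocyte markers (1.16, 12 markers) and the Tcf21-rich cluster for mesenchymal markers (1.22, 10 markers). Each had 0 markers of that class and 1 of another class among its 10 leading genes. A shallow cardiomyocyte-like cluster (1195 and 219 cells, median 1486 and 1460 UMIs) and an atrial-like cluster (108 and 3 cells) were not compared.

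UMIs were summed per population and library and given in CPM. Each group has 1 library, so neither p-values nor standard errors were computed, and nothing measures the spread between embryos. Intervals (95%) are exact Poisson, exact binomial (Clopper-Pearson) and, for ratios, exact conditional (scipy 1.17.1). Alternatives changed the pseudocount, the minimum level, the scaling, the cell and doublet filters and the clustering. Named genes were the 8 members, Hand2 and the reporters, pathway genes past 2-fold (at most 6 per population) and the 3 genes most like each member. The members and lists were chosen with earlier results of these data known.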

Additional observations from a re-analysis of the deposited data

Results flagged for a closer look

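The Tgfb1 log2 ratio had opposite signs in the 2 endothelial populations, 1.03 in Emcn-rich cells, which was past 2-fold, and −0.33 in Klf2-rich cells, which was not. The 2 log2 ratios differed by 1.36. The median over all genes in Klf2-rich cells was −0.22, and the Tgfb1 ratio there was −0.11 once centred on it and between −0.36 and −0.02 over 13 alternatives. In the Emcn-rich population the endocardial marker sum was 1271 CPM in the control and 335 in H2CKO, and its part was not tested. With 1 library per genotype the difference was not tested.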

How the results depend on the processing

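No paired analysis was possible because each genotype has 1 library and the labels give no replicate numbers; for the same reason no replicate could be left out. The 1 member value higher in H2CKO became 0 among cells of the deposited embedding (log2 ratio 0.95) and at Leiden resolutions of 0.5 and 1 (0.11 in all endothelium), the latter chosen after seeing the data. The 8 lower values became 2 with a minimum of 100 CPM (where 14 values were compared), 5 with the trend on gene span taken off, 4 with cells thinned to 5000 UMIs, 2 at both of those Leiden resolutions and 5 with cells kept only where their own markers gave the class of their cluster. They were 6 to 10 under the other alternatives, with 10 without a minimum level and with unbalanced neighbours and 6 after centring. At resolution 0.5, 6 populations could be compared, at resolution 1, 7, and by own markers, 8. The share of all genes past 2-fold, 5.05%, became 8.15% with 1 CPM added, 2.78% without a minimum level, 2.89% centred on the median gene and 2.42% with the trend on gene span taken off. Of the 9 member calls, Tgfbi in Klf2-rich endothelium met both the 2-fold and the minimum level under 12 of 13 alternatives, Tgfbr3 in Emcn-rich endothelium, Tgfbi in Hapln1-rich mesenchyme and Tgfb2 in ventricular-like cells each under 13 of 15, Tgfb1 in Emcn-rich endothelium under 12 of 15, Tgfbi and Inhba in the Bmp2- and Tbx3-rich cluster under 8 and 7 of 13 (the Tgfbi ratio was −1.32 or lower in all 13, and its 5 losses came from the minimum level), and Tgfbi and Tgfb2 in white-blood-cell-like cells under 9 and 6 of 15. Tgfb2 in ventricular-like cells had −0.88 without the span trend. With cells thinned, Tgfb2 in white-blood-cell-like cells (−1.40) and Tgfbi in the Bmp2- and Tbx3-rich cluster (−2.19) were likewise under the minimum while their ratios were not smaller. None of these 9 ratios changed sign under any alternative run.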
